A study of Mus musculus with 4 samples.

Results

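Regulatory T cells (Treg cells) are CD4 T cells that restrain other lymphocytes. Their identity rests on the transcription factor Foxp3, helped by Ikzf2 (Helios), and they carry the interleukin-2 receptor chain Il2ra (CD25) and the inhibitory receptor Ctla4. They also display costimulatory receptors of the tumor necrosis factor receptor family, among them Tnfrsf4 (OX40), which is the target of one of the antibodies given in this study, and Tnfrsf18 (GITR). In blood, Treg cells are found both in a resting form that keeps lymph node homing receptors and in an activated, effector form.

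Blood T cells were enriched from C57BL/6 mice that had received MC-38 cells, a mouse colorectal tumor line, under the skin, and were profiled by 10x Chromium 3′ single-cell RNA sequencing at day 18. The mice were female and 6 to 8 weeks old at the start. The 4 libraries came from 4 mice, 1 per group. The first mouse was untreated, the second (label PDL1) received 150 µg anti-PD-L1 on days 10, 13 and 17, the third (label OX40) received 150 µg of agonistic anti-OX40 with 25 µg of the TLR9 ligand CpG on day 7, and the fourth (PDOX) received both. Where 4 values follow each other below, they are in this order of libraries. Treatment, mouse and library therefore cannot be told apart, and values between libraries are given without a test, with intervals that cover counting error only.

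Treg cells were selected from 5276 of 5434 deposited cells, those with 200 to 2900 genes detected. A cell was taken when it held at least 1 unique molecular identifier (UMI, 1 captured transcript) of Cd3d, Cd3e or Cd3g, none of Cd8a or Cd8b1, and either at least 1 UMI of Foxp3 or at least 1 UMI of both Ikzf2 and Il2ra. This gate chose 77 cells, 8, 9, 22 and 38 in the order of the libraries. They were compared with 772 CD4 cells that held Cd4 UMIs, no Cd8a or Cd8b1 UMIs and none of Foxp3, Ikzf2 and Il2ra (102, 185, 237 and 248 cells), called comparison cells below. Levels are UMIs per 10000 UMIs of the same cells, after mitochondrial, ribosomal protein and hemoglobin genes were set aside.

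The libraries held 2392650 to 4969885 UMIs. Median depth was 1936 UMIs in a Treg-gated cell and 1650.5 in a comparison cell, so the members were somewhat deeper. The libraries shared 16 cell barcodes in all, and 0 of these belonged to a Treg-gated cell. One untreated Treg-gated cell stood apart, with 6326 UMIs of which 393 were Lyz2, a lysozyme gene of monocytes and neutrophils. That cell held 1 Foxp3 UMI, 1 Izumo1r UMI and no UMI of Ikzf2, Ctla4, Tnfrsf4 or Tnfrsf18. It supplied 6326 of the 18998 UMIs of the untreated Treg-gated cells, leaving 12672 without it. Untreated levels below include it unless stated, and leaving it out raises those of genes of which it held no UMI: Tnfrsf4 from 2.11 to 3.16 UMIs per 10000, Tnfrsf18 from 5.79 to 8.68, Ctla4 from 2.63 to 3.95, Cxcr3 from 6.32 to 9.47 and Klrg1 from 7.90 to 11.8. Fam129a went from 1.58 to 0.789.

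The gate genes themselves describe the choice and are no result. Foxp3 was read from few transcripts: 51 of the 69 Foxp3-positive members held exactly 1 Foxp3 UMI and 18 held 2 or more. Ikzf2 UMIs accompanied Foxp3 in 40 cells, all 3 genes were present in 12, Foxp3 stood alone in 16, Foxp3 with Il2ra in 1, and the remaining 8 cells entered through Ikzf2 and Il2ra. The Ikzf2 level was 5.79 UMIs per 10000 in untreated, 15.4 in anti-PD-L1, 17.5 in anti-OX40/CpG and 15.1 in PDOX Treg-gated cells. Foxp3 lay between 5.69 and 6.85 in the 4 libraries. Without the Lyz2-rich cell the untreated levels were 8.68 for Ikzf2 and 7.89 for Foxp3. The Cd4 level, which the gates set differently, was 3.02 in Treg-gated and 7.79 in comparison cells.

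Receptor genes that the gate did not use were read to check the label. Of the 77 members, 71 held at least 1 UMI of Ctla4, Tnfrsf4, Tnfrsf18 or Izumo1r (92.2%, 95% Clopper-Pearson interval 83.8 to 97.1). The share was 37.95% in comparison cells, 25.9% in cells with Cd8 UMIs (median 1798 UMIs) and 8.96% in 134 B cells (median 1250 UMIs). Among the 16 members with Foxp3 alone it was 68.8% (41.3 to 88.98). In the untreated library 6 of 8 members held one, and 1 of these was the Lyz2-rich cell, through 1 Izumo1r UMI. This check left out other markers planned for the label, Ikzf4, Gpr83, Nrp1 and Itgae. Of these only Nrp1 was called in the test below, while the receptors used here were all called. Markers of other cell types were low outside the Lyz2-rich cell. Monocyte and neutrophil markers were seen in 30 of the 76 other members, at 2.68 UMIs per 10000. In comparison cells without Lyz2-rich cells they were at 4.03. The gate did not ask for Cd4, and 34 of the 77 members held a Cd4 UMI (44.2%). Of 6 markers of gamma-delta and natural killer T cells only 2 were among the genes counted. Both were at 0 in either population, so such cells were hardly checked. Of the B cell markers, Cd79a, Ms4a1 and Ebf1 were at 0 and Cd79b had 7 UMIs; of 6 NK cell markers, Ncr1, Klrb1c, Klra8 and Klra4 were at 0. The 8 monocyte and neutrophil markers summed to 241 per 10000 in untreated members and to 1.58 without the Lyz2-rich cell, against 3.98, 1.48 and 3.36 in the members of the treated libraries.

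**Figure D1:**
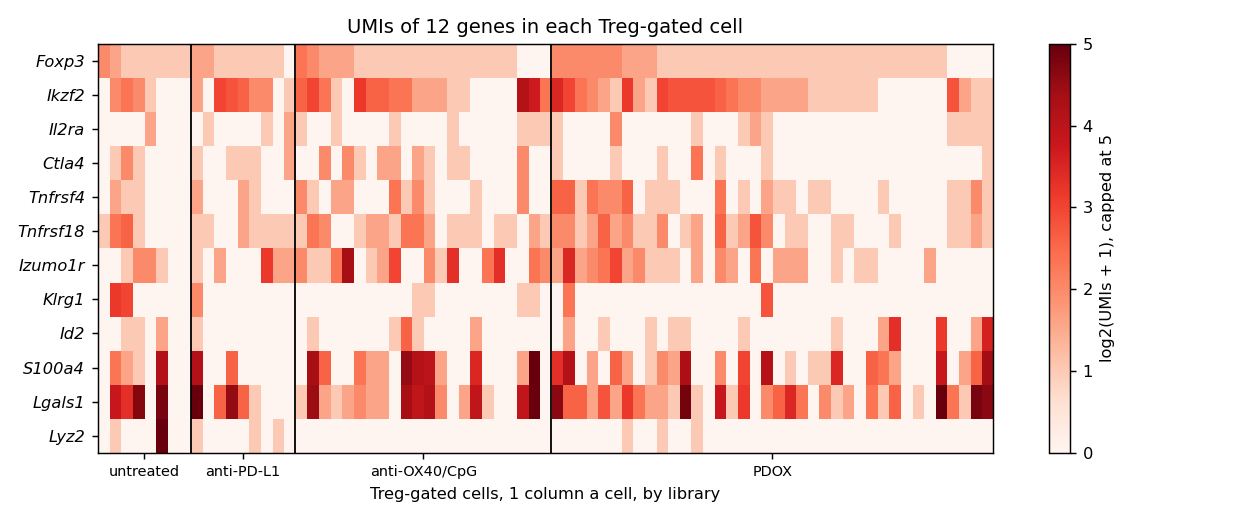
UMIs of 12 genes, as log2(UMIs + 1) with colors capped at 5, in each of the 77 Treg-gated cells (columns), grouped by library. Foxp3, Ikzf2 and Il2ra chose the cells; the column with dark Lyz2 is the untreated cell with 393 Lyz2 UMIs, and S100a4 and Lgals1 are strong in some members and absent in others within each library.

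Cells on either side of the gate were then set side by side. Members with exactly 1 Foxp3 UMI had 2.50 Ctla4 UMIs per 10000 (1.60 to 3.72), 3.02 of Tnfrsf4 (2.02 to 4.33) and 8.32 of Izumo1r (6.60 to 10.4). Members with 2 or more had 2.26 of Ctla4 (1.09 to 4.16), 8.83 of Tnfrsf4 (6.28 to 12.1) and 14.3 of Izumo1r (10.96 to 18.2). Just outside the gate, 201 Cd3+ Cd8- cells with Ikzf2 UMIs only had 0.913 of Ctla4 (0.628 to 1.28), 1.52 of Tnfrsf4 (1.15 to 1.98) and 3.24 of Izumo1r (2.68 to 3.88). The 2199 cells with none of the 3 genes had 0.119 of Ctla4, 0.226 of Tnfrsf4 and 1.38 of Izumo1r. Receptor levels in the Ikzf2-only cells thus lay between those of the members and of the remaining cells. The 8 members let in by Ikzf2 and Il2ra had 3.96 Ctla4 UMIs per 10000 (1.45 to 8.62) and 5.94 of Tnfrsf4 (2.72 to 11.3), beside 2.42 and 4.85 in the Foxp3-positive members, and their Icos level of 12.5 (7.55 to 19.6) came from 4 cells.

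The share of Treg-gated cells among circulating Cd3+ Cd8- cells was read next, which depends on the detection of few transcripts. Treg-gated cells made up 8 of 347 such cells in the untreated library (2.31%, Clopper-Pearson interval 1.0 to 4.49) and 9 of 597 in anti-PD-L1 (1.51%, 0.692 to 2.84). They made up 22 of 745 in anti-OX40/CpG (2.95%, 1.86 to 4.44) and 38 of 810 in PDOX (4.69%, 3.34 to 6.38). PDOX had the highest share, and its interval was separate from that of anti-PD-L1 only. The order was the same when Foxp3 UMIs alone defined the cells (2.31%, 1.34%, 2.55% and 4.20%). After every cell was thinned to 750 UMIs the shares were 1.57%, 0.951%, 1.40% and 2.71%, with PDOX still highest and with untreated and anti-OX40/CpG in the other order. Foxp3 UMIs were also sought outside the gate. Of cells with Cd8 UMIs 20 of 2392 held Foxp3 (0.836%, 0.511 to 1.29). Of B cells 0 of 134 did, which allows up to 2.24%. Among those 20 cells, 14 held at least 1 UMI of the 4 receptors read above (70.0%, 45.7 to 88.1). The share was 25.9% in all cells with Cd8 UMIs. Whether the 20 cells were background was not tested. Cells with Ikzf2 UMIs only made up 4.90%, 5.86%, 8.86% and 10.2% of Cd3+ Cd8- cells. Together with the members they made up 7.20% (4.72 to 10.5), 7.37% (5.41 to 9.77), 11.8% (9.58 to 14.3) and 14.9% (12.6 to 17.6). In this wider set the PDOX interval was also separate from the untreated one. Whether the cells with Ikzf2 UMIs only were Treg cells was not tested. In the anti-PD-L1 library Foxp3 was found in 1.34% of Cd3+ Cd8- cells and 0.819% of Cd8 cells, and the intervals overlapped. All 9 anti-PD-L1 members held at least 1 UMI of the 4 receptors.

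**Figure D2:**
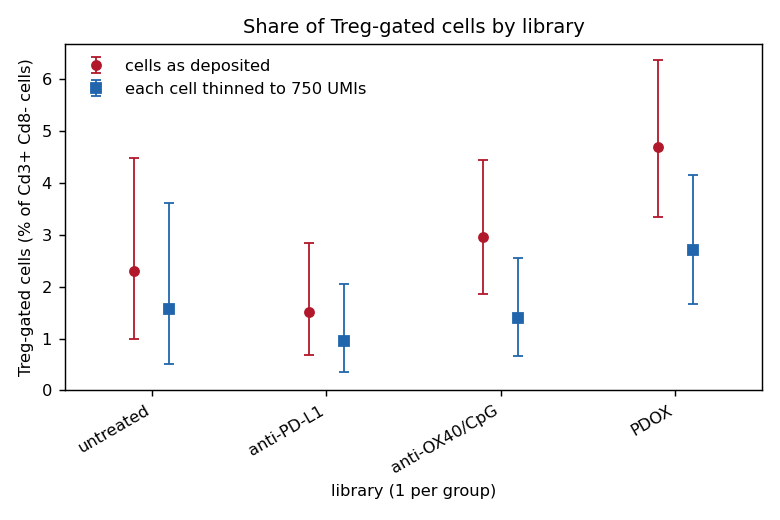
Treg-gated cells as percent of Cd3+ Cd8- cells in each of the 4 libraries, with all UMIs (circles) and after thinning to 750 UMIs a cell (squares); bars are 95% Clopper-Pearson intervals for counting error. PDOX is highest at 4.69% and 2.71%, and anti-PD-L1 lowest at 1.51% and 0.951%.

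To define the Treg program in blood, UMIs were summed per library for both populations and compared with edgeR's quasi-likelihood test, with the library as a block and the gate genes left out. Of 2168 genes tested, 52 were higher in Treg-gated cells (2.40%) and 53 were lower (2.44%) at a Benjamini-Hochberg adjusted p under 0.05, while 329 had an unadjusted p under that value. The genes that rose were headed by receptors of known Treg function, and those that fell by genes of resting T cells and of cytotoxic cells. The median log2 fold change of all genes tested was -0.01. Without the anti-OX40/CpG library the calls were reduced to 22, 20 of them among the original 105, and 25 of the 37 genes that the naming rule chose were no longer called. The libraries are the replicates of this test, and each is 1 mouse under its own treatment.

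**Figure D3:**
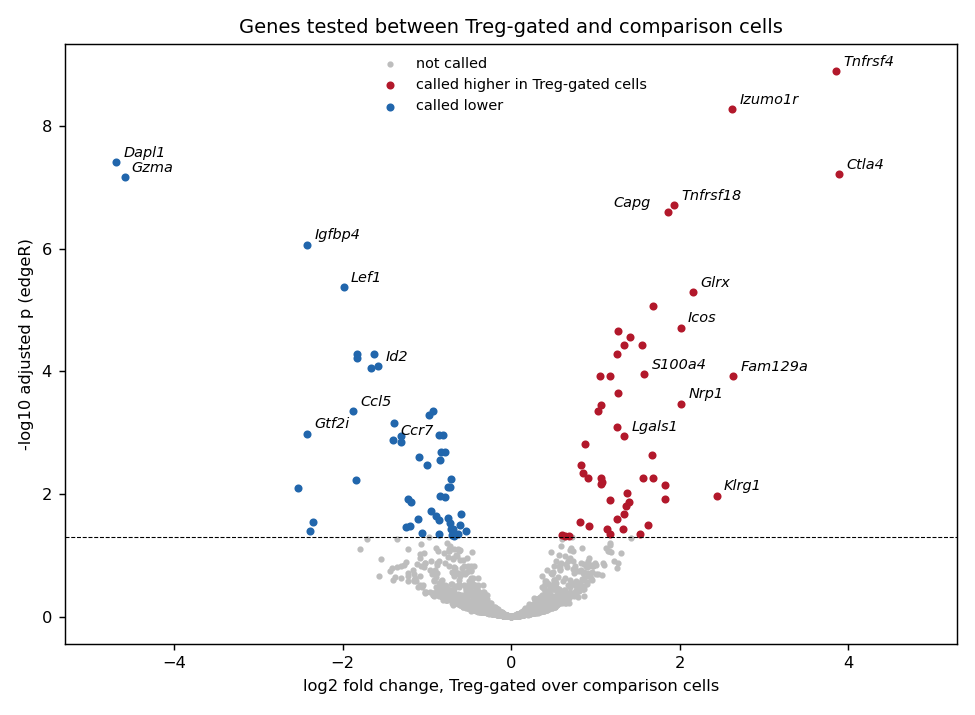
Log2 fold change (Treg-gated over comparison cells) against -log10 adjusted p from edgeR for 2168 genes; red, 52 genes called higher; blue, 53 called lower; dashed line, adjusted p of 0.05. Tnfrsf4 and Ctla4 lie farthest to the right and Dapl1 and Gzma farthest to the left.

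Costimulatory receptors came first: of 8 listed genes 5 could be tested and 3 rose (Tnfrsf4, Tnfrsf18 and Icos), with a list median log2 fold change of 1.94. Tnfrsf4, which binds the OX40 ligand, stood at 2.11, 2.84, 4.44 and 6.57 UMIs per 10000 in the members of the 4 libraries. In comparison cells the values were 0.115, 0.132, 0.267 and 0.485, so the lowest Treg value exceeded the highest comparison value. Its log2 fold change was 3.86 (SE 0.33, edgeR adjusted p = 1.27e-09). Tnfrsf18 stood at 5.79, 4.55, 6.76 and 7.55 in members and 0.919, 1.19, 1.51 and 2.22 in comparison cells, again without overlap (log2 fold change 1.94, SE 0.22, adjusted p = 1.93e-07). Icos, a receptor of the CD28 family, was at 1.58, 2.28, 6.55 and 3.64 in members against 0.287, 0.692, 1.07 and 1.18 (log2 fold change 2.01, SE 0.29, adjusted p = 1.93e-05), and it lost its call without the anti-OX40/CpG library. Tnfrsf9 (4-1BB) was too low for the test, with 13 UMIs in 9 members (0.836 per 10000) and 3 UMIs in comparison cells.

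Tnfrsf4 and Tnfrsf18 are neighbors, and because they and Ctla4 rose together in these cells the 250 bases before each start are shown, from RefSeq on GRCm38.p6, the assembly that mm10 denotes. The Tnfrsf4 window is chr4:156013445-156013694, the Tnfrsf18 window chr4:156026072-156026321 and the Ctla4 window chr1:60908775-60909024, all on the plus strand and all upstream of the transcript. The starts of Tnfrsf4 and Tnfrsf18 lie 12627 bases apart. Capitals mark the forkhead core AAACA, searched on both strands, so that TGTTT is its reverse complement.
Tnfrsf4: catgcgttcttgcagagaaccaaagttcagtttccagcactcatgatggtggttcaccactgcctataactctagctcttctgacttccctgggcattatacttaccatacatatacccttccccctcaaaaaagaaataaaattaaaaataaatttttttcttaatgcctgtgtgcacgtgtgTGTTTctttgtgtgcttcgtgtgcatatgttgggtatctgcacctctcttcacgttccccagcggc
Tnfrsf18: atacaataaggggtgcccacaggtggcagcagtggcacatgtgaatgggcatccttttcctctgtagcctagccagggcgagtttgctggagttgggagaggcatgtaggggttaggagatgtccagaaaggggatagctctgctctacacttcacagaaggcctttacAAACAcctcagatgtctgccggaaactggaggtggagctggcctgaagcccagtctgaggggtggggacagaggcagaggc
Ctla4: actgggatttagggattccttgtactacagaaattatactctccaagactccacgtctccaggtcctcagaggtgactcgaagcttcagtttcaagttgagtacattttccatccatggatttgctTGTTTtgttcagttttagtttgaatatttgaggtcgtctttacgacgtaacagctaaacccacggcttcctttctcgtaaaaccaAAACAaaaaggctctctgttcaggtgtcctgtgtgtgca
The forkhead core was found 1, 1 and 2 times in the 3 windows, and the NFAT core GGAAA, also on both strands, 1, 2 and 1 times. Of all 32851 windows of this length 46.4% held AAACA and 55.6% held GGAAA, so these letters are frequent and describe the windows only.

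Among 8 inhibitory receptors only Ctla4 and one other gene could be tested, and Ctla4 rose. Ctla4, which competes with CD28 for its ligands, was at 2.63, 3.41, 4.01 and 1.40 UMIs per 10000 in members and at 0.0574, 0.132, 0.243 and 0.162 in comparison cells (log2 fold change 3.89, SE 0.41, edgeR adjusted p = 6.09e-08). The PDOX members, where Tnfrsf4 was highest, had the lowest Ctla4 level, and the groups of Treg and comparison values did not overlap. Pdcd1, the gene of PD-1, had 8 UMIs in 8 members, 0 in the untreated and anti-PD-L1 cells and 0.422 and 0.839 per 10000 in the anti-OX40/CpG and PDOX cells. Its level in comparison cells was 0.219 (0.147 to 0.315) against 0.515 (0.222 to 1.01) in all members. Tigit had 1 UMI and Lag3 7 UMIs in the members, too few to compare.

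Other surface and Treg-associated genes rose in 4 of the 7 that could be tested of 11 listed (Izumo1r, Capg, Klrg1 and Nrp1), with a list median log2 fold change of 1.86. Izumo1r, which encodes folate receptor 4, was at 4.21, 8.53, 14.996 and 8.11 UMIs per 10000 in members and at 1.67, 1.94, 1.63 and 0.902 in comparison cells (log2 fold change 2.63, SE 0.24, edgeR adjusted p = 5.31e-09). Nrp1, neuropilin-1, was at 2.11, 3.98, 2.11 and 3.5 in members and 0.115, 0.362, 0.608 and 1.18 in comparison cells (log2 fold change 2.02, SE 0.36, adjusted p = 0.000335). Capg, an actin-capping protein gene, had log2 fold change 1.86 (SE 0.21, adjusted p = 2.51e-07). All 3 genes were higher in members in 4 of 4 libraries. Klrg1, a marker of terminally differentiated lymphocytes, was called at a log2 fold change of 2.44 (SE 0.60, adjusted p = 0.0108), but 15 of its 32 UMIs came from untreated cells, and it was not called without the untreated library or without the anti-OX40/CpG library. Its levels were 7.90, 1.71, 0.845 and 1.40 in members, while untreated and anti-PD-L1 comparison cells had none.

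**Figure D4:**
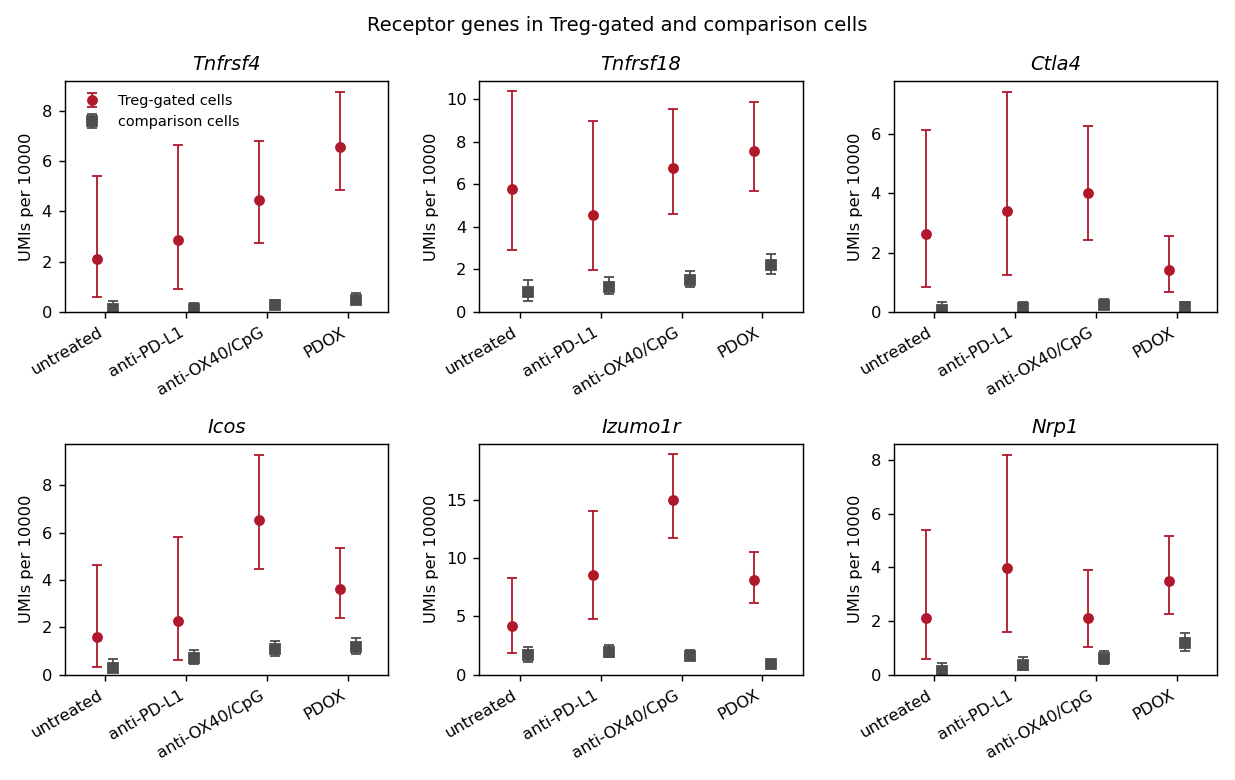
Levels (UMIs per 10000) of 6 receptor genes in Treg-gated (circles) and comparison cells (squares) of each library; bars are 95% Poisson intervals for counting error. Treg-gated cells were higher in all 4 libraries for all 6 genes; Tnfrsf4 runs from 2.11 in untreated to 6.57 in PDOX and Ctla4 is lowest in PDOX at 1.40.

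Other genes with large increases in all 4 libraries were Fam129a, a stress-response regulator, and Glrx, the glutaredoxin gene. Fam129a was at 1.58, 2.28, 1.69 and 1.54 UMIs per 10000 in members and at most 0.393 in comparison cells (log2 fold change 2.64, SE 0.44, edgeR adjusted p = 0.000119). Glrx was at 4.21, 1.71, 5.91 and 3.22 in members and between 0.593 and 0.923 in comparison cells (log2 fold change 2.16, SE 0.29, adjusted p = 5.12e-06). Fam129a in untreated members rested on 3 UMIs, and its level there was 0.789 without the Lyz2-rich cell. Neither gene overlapped between the populations, as for Tnfrsf4, Tnfrsf18 and Ctla4. How many of the 2168 genes tested did the same was not counted, so this is description only. Fam129a and Glrx were called under every alternative in which they could be tested. So were Tnfrsf4, Tnfrsf18, Ctla4, Izumo1r, Capg, Dapl1, Igfbp4 and Lef1, which made 10 named genes.

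In IL-2 receptor signalling 1 of 4 tested genes rose, with a list median of -0.47. That gene was Il2rb, the shared beta chain of the IL-2 and IL-15 receptors, at 2.57 UMIs per 10000 in members and 0.862 in comparison cells (log2 fold change 1.34, SE 0.36, edgeR adjusted p = 0.0210), and anti-PD-L1 members held none. It was called in 6 of the 12 alternatives in which it could be tested. Of 12 suppressive effector genes 3 were tested and 2 rose (Gzmb and Lgals1). Gzmb, granzyme B, had 22 UMIs in 13 members (log2 fold change 1.53, SE 0.45, adjusted p = 0.0445), and it was called in 3 of the 10 alternatives in which it could be tested. No UMI of Il10 was found in either population, which allows up to 0.193 per 10000 in the members.

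Among 20 listed transcription factors 11 were tested, none rose and 2 fell (Id2 and Satb1). Satb1, a chromatin organizer of thymocytes and resting T cells, was at 1.58, 2.84, 2.11 and 1.40 UMIs per 10000 in members and between 3.56 and 5.83 in comparison cells (log2 fold change -1.39, SE 0.27, edgeR adjusted p = 0.000691). Resting T cell genes were lower as a list: 12 of 14 were tested, 7 fell, none rose, and the median log2 fold change was -1.35. Dapl1 had 3 UMIs in all members (0.193 per 10000) against 5.24 in comparison cells, a level ratio of 0.0368 with a counting interval of 0.00757 to 0.108 (adjusted p = 3.85e-08). Igfbp4 was at 1.35 against 7.25 (log2 fold change -2.42, SE 0.30, adjusted p = 8.66e-07). Lef1 and Tcf7, partner transcription factors of Wnt signalling in naive T cells, were at 1.93 against 7.63 and at 1.61 against 5.63, with adjusted p values of 4.22e-06 and 6.00e-05. Il7r, the survival receptor of naive and memory cells, was at 1.93 against 4.61 (adjusted p = 0.00115). Of the remaining genes with the largest decreases, Fam78a, Gtf2i and Card19 had 3 to 7 UMIs in all members, and Jun, an AP-1 subunit, was at 2.12 against 6.59 (adjusted p = 8.80e-05). Card19 was not called in any of the 3 fits without 1 library in which it could be tested.

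Homing receptors split: 9 of 19 could be tested, Ccr2, Cxcr3 and Itgb7 rose and Ccr7 fell. Ccr7, which guides cells into lymph nodes, was at 1.58, 1.71, 1.48 and 2.10 UMIs per 10000 in members and at 5.97, 5.86, 5.01 and 3.14 in comparison cells (log2 fold change -1.40, SE 0.28, edgeR adjusted p = 0.00132). Cxcr3, the receptor for interferon-induced chemokines, was at 6.32, 1.14, 3.38 and 4.48 in members and 0.172, 0.329, 1.14 and 2.40 in comparison cells (log2 fold change 1.56, SE 0.36, adjusted p = 0.00550). Itgb7, an integrin chain for gut homing, was at 13.7 against 6.47 (log2 fold change 1.03, SE 0.19, adjusted p = 0.000445). Ccr2 passed narrowly (adjusted p = 0.0454) and was called in 2 of the 15 alternatives. Ccr8 had no UMI in the members.

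Of 15 listed cytotoxic and helper cytokine genes 4 were tested, Gzma, Ccl5 and Nkg7 fell and Gzmb rose. The summed list was at 23.2, 2.28, 10.1 and 27.4 UMIs per 10000 in members and at 19.9, 11.7, 38.3 and 155 in comparison cells, so it was higher in members in the untreated library (32.4 against 22.4 without Lyz2-rich cells). Gzma, granzyme A, had 3 UMIs in 3 members, all PDOX, or 0.193 per 10000 against 3.68 in comparison cells, a ratio of 0.0524 (0.0108 to 0.154; edgeR adjusted p = 6.74e-08). Ccl5, a chemokine of effector cells, was at 16.3, 0, 6.55 and 14.97 in members and 10.2, 5.99, 26.4 and 112 in comparison cells (log2 fold change -1.88, SE 0.35, adjusted p = 0.000445), so in the untreated library it was the other way, as was Nkg7. Of its 169 UMIs 49 were in 1 member. Interferon-stimulated genes gave 1 rise (Ifi27l2a) among 11 tested of 15, and cell cycle genes 1 (Hmgb2) among 4 tested of 14. Hmgb2 was called in 6 of 15 alternatives. Mki67 was found as 3 single UMIs in 3 members.

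Effector and memory genes showed how members and comparison cells related across treatments. All 17 listed genes were tested, 5 rose (Cxcr3, Lgals1, S100a4, S100a10 and Vim) and Id2 fell. Vim was called in 6 of 15 alternatives. Summed over the list, Treg-gated cells held 245, 241, 223 and 230 UMIs per 10000 in the 4 libraries. Comparison cells held 97.4, 77.4, 123 and 217. The summed level in members thus lay between 223 and 245, while that of comparison cells was much higher in PDOX. Without Lyz2-rich cells the untreated sums were 204 and 74.2. In anti-PD-L1, 1 of the 9 members supplied 5059 of 17580 UMIs. That cell held 43 of the 76 Lgals1 UMIs and 17 of the 22 S100a4 UMIs, and sums without it were not made. Resting genes mirrored the effector and memory sums, with 33.2, 39.8, 42.9 and 41.5 in members and 84.5, 80.6, 76.2 and 57.6 in comparison cells. With 1 library per group these differences between treatments were not tested.

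Single genes of this list followed different courses. Lgals1, galectin-1, was at 39.0, 43.2, 31.3 and 34.4 UMIs per 10000 in members and 7.29, 6.16, 14.7 and 37.6 in comparison cells, so that in PDOX comparison cells reached the Treg level (log2 fold change over all libraries 1.34, SE 0.27, edgeR adjusted p = 0.00115). S100a4, a calcium-binding protein of memory cells, was at 12.6, 12.5, 28.1 and 20.8 in members and 3.16, 1.35, 6.44 and 16.6 in comparison cells (log2 fold change 1.58, SE 0.26, adjusted p = 0.000110); without Lyz2-rich cells its untreated levels were 5.52 and 0.521. Id2, a transcriptional regulator of effector lymphocytes, went the other way. It was at 2.11, 0.569, 2.11 and 5.59 in members and 2.18, 2.40, 6.68 and 17.4 in comparison cells (log2 fold change -1.58, SE 0.26, edgeR adjusted p = 8.19e-05). Of the 40 Id2 UMIs of PDOX members, 11, 9 and 8 were in single cells, so the PDOX level in members rested on few cells. All 3 genes lost their call without the anti-OX40/CpG library and without the library block.

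**Figure D5:**
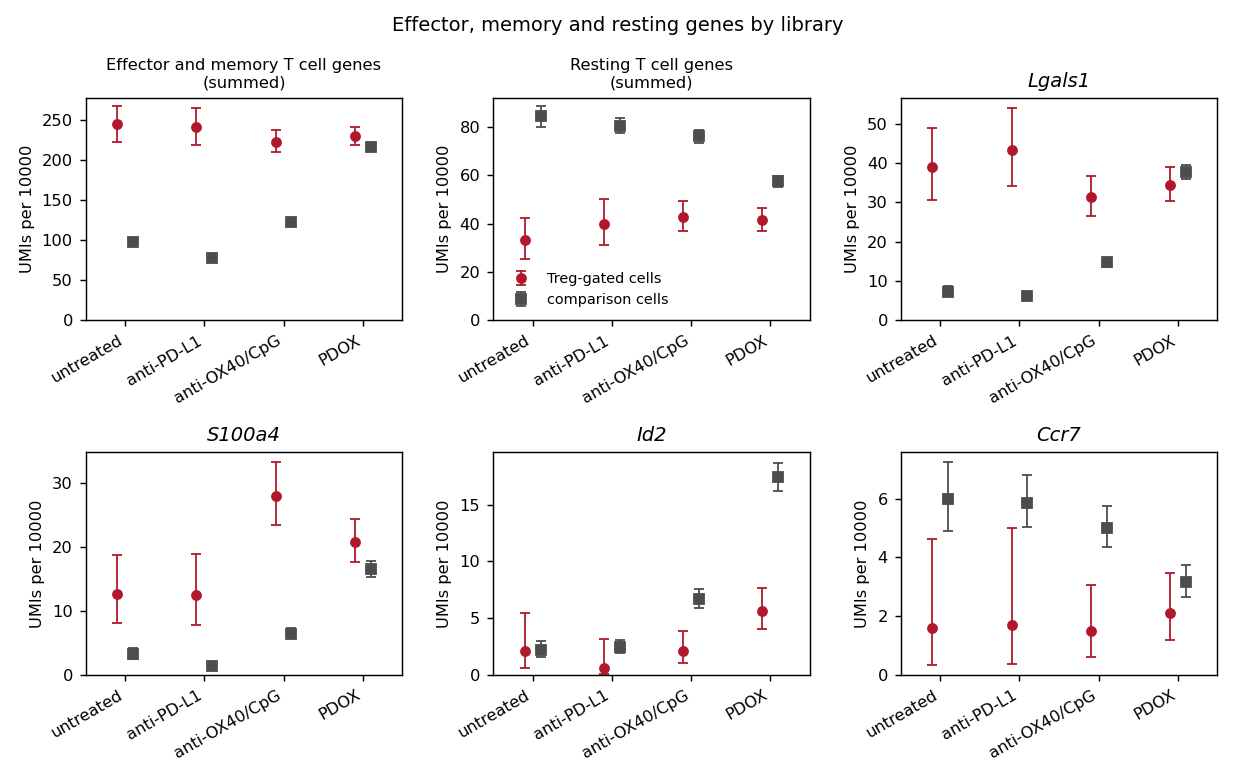
Levels (UMIs per 10000) in Treg-gated (circles) and comparison cells (squares) of each library for 2 summed gene lists and 4 genes; bars are 95% Poisson intervals for counting error. Effector and memory genes stay between 223 and 245 in Treg-gated cells and reach 217 in PDOX comparison cells from 97.4 in untreated ones; Id2 reaches 17.4 in PDOX comparison cells and 5.59 in Treg-gated cells.

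Members differed among themselves along the same axis. S100a4 UMIs were present in 40 of the 76 members without the Lyz2-rich cell and absent in 36, a split chosen after the values were seen and given without a test. The S100a4-positive members were deeper, with a median of 2270.5 UMIs against 1528.5. Comparison cells without Lyz2-rich cells also divided, into 185 positive and 581 negative cells, with medians of 1971 and 1562 UMIs. The contrasts below are therefore not shown to be particular to members. Lgals1 was at 50.2 UMIs per 10000 (45.7 to 54.9) in positive and 9.08 (6.76 to 11.9) in negative members. Maf, a transcription factor of effector T cells, was at 3.12 and 0.178, and all 32 Klrg1 UMIs lay in positive members (3.44 per 10000). In the opposite direction, Ccr7 was at 0.323 and 4.45, Igfbp4 at 0.108 and 3.56, and Bcl2, a survival gene, at 0.538 and 6.41. Izumo1r was also lower in positive members, at 5.60 (4.18 to 7.34) against 17.6 (14.3 to 21.4). Ctla4 was at 2.69 and 2.67 and Tnfrsf18 at 7.64 and 6.05, with overlapping intervals. The direction for Lgals1, Ccr7, Igfbp4, Bcl2 and Izumo1r was the same within the anti-OX40/CpG and the PDOX library, in which Izumo1r was at 4.56 and 30.8 and at 7.01 and 10.4.

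Id2-positive members were too few for the comparison planned across libraries, since PDOX was the only library with at least 10 cells in both classes (12 and 26). Within PDOX, Id2-positive members had 39.7 Ccl5 UMIs per 10000 (32.4 to 48.1) against 0.66 (0.14 to 1.94) in Id2-negative ones. Those 104 UMIs came from 5 cells, and 49 of them from 1 cell. Nkg7 was at 15.3 against 1.99, Ccr2 at 7.25 against 0.66 and Lgals1 at 56.1 (47.4 to 66.0) against 21.9 (17.8 to 26.6). Tnfrsf4 was at 6.11 and 6.84 and Tnfrsf18 at 6.49 and 8.17, with overlapping intervals. Foxp3 was at 5.73 and 7.5, but it chose most of the members, so these values describe the gate and are no result. Of the 8 cells let in by Ikzf2 and Il2ra no library held 10, so that arm was not tested against the Foxp3 arm either.

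Treated members were finally set against untreated members, gene by gene, for 929 genes with at least 30 UMIs over all members. PDOX was at least 2-fold above untreated for 116 genes (12.5%) and at least 2-fold below for 64 (6.89%). In comparison cells the same genes gave 50 and 21. The counting interval lay above 1 for 52 genes and below 1 for 42 in members, and for 194 and 95 in comparison cells. PDOX members held 71497 of the 155422 UMIs of all members, so the filter let in genes high in PDOX more easily. The excess of 116 over 64 is therefore not read as a result. Untreated members held 18998 UMIs and untreated comparison cells 174141, and the part of this depth in the counts was not tested. Tnfrsf4 was 3.12-fold higher in PDOX than in untreated members (conditional binomial interval 1.14 to 11.9), or 2.08-fold (0.761 to 7.96) without the Lyz2-rich cell, and 4.23-fold higher in comparison cells. The ratio was 2.66 (0.961 to 10.2) for Id2 in members and 7.98 in comparison cells. For Klrg1 it was 0.177 (0.0712 to 0.422) in members, where 2 untreated cells held all 15 untreated UMIs. Itgb1, an adhesion integrin, was at 1.05, 4.55, 4.01 and 6.01 per 10000 in members, a PDOX over untreated ratio of 5.71 (1.49 to 48.7), or 3.81 without the Lyz2-rich cell.

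Of the genes with the highest ratios in members, Arpc5l, Mat2b, Spcs2, Idh3b, Itgb1, Rgs1, Pla2g16 and Lfng, with ratios of 4.25 to 6.91, each had 1 to 3 UMIs in untreated members. The lowest ratios belonged to Psap, Gpx1, Hmgn2, Ttc14, Apbb1ip, Rsrc2, Arglu1 and Pdia6. Psap and Gpx1, lysosomal and antioxidant genes, were at 0.165 and 0.191 and at 0.798 and 0.638 without the Lyz2-rich cell. Hmgn2, a nucleosome-binding protein gene, was at 6.32 and 8.53 per 10000 in untreated and anti-PD-L1 members and at 1.69 and 1.26 in anti-OX40/CpG and PDOX members, a ratio of 0.199 (0.0742 to 0.515).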

How the data were processed

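The deposited files hold raw UMI counts per gene and cell, made by the authors from 10x Chromium 3′ v2 libraries. The submitters' processing notes name mm10 and Seurat 2, and the study's resource list names Cell Ranger, which aligns and counts such reads. Sequencing is given as NovaSeq6000 in the labels and as HiSeq4000 in the methods. Cells with 200 to 2900 genes detected were kept; no doublet caller was run. The members and gene lists were chosen with earlier results of these data known. Counts were summed per library and population and tested with edgeR 4.0.16 in R 4.3.3 (TMM, filterByExpr, glmQLFit, glmQLFTest, library as block, Benjamini-Hochberg over all genes tested, called under 0.05). The standard error was the log2 fold change divided by the square root of F. DESeq2 1.42.0 was an alternative. The test was also run on simulated counts with a common dispersion for all genes and no library effect, a simpler setting than these data. P-values measure the spread, over 4 libraries, of the difference between Treg-gated and comparison cells. Each library is 1 mouse under its own treatment, so this spread also holds any difference between treatments. Levels have exact Poisson, shares Clopper-Pearson and ratios conditional binomial 95% intervals, which cover counting error only; where a count was 0, 3 UMIs gave the limit. Named were the listed genes called, the 10 largest increases and 10 largest decreases in the same direction in every library, and the 8 highest and 8 lowest PDOX over untreated ratios with one direction against all other libraries; gene models without a name, ribosomal and receptor segment genes were not named. The Lyz2-rich cells (more than 20 Lyz2 UMIs) were left out as an alternative added after seeing the data. A few genes that this rule or the lists name are not reported here.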

Additional observations from a re-analysis of the deposited data

Results flagged for a closer look

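Opposite directions of PDOX over untreated in Treg-gated and comparison cells were found for 5 of the genes followed by library; the differences were not tested, since each group is 1 library. Lgals1 was at a ratio of 0.883 (0.679 to 1.16) in Treg-gated and 5.16 in comparison cells. Klrg1 was at 0.177 in Treg-gated cells and at least 4.70-fold higher in comparison cells, whose untreated library held none (3 UMIs taken as the floor), and Ctla4 at 0.531 (0.166 to 1.98) and 2.82. Cxcr3 was at 0.709 (0.355 to 1.51) and 14.0, and Ccr7 at 1.33 (0.376 to 7.16) and 0.526, and at 0.886 in Treg-gated cells without the Lyz2-rich cell, which is the direction of comparison cells. Without Lyz2-rich cells Tnfrsf18 (0.870 and 2.27) and Il2rb (0.798 and 2.75) also went opposite ways, while with them both ratios were above 1 in either population. Only the Klrg1 interval in Treg-gated cells excluded 1, and 2 cells held all of its untreated UMIs.

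Foxp3 UMIs were also found in cells with Cd8a or Cd8b1 UMIs, which the gate excludes. This was 0.819% of such cells in anti-PD-L1, 0.802% in anti-OX40/CpG and 1.46% (0.633 to 2.86) in PDOX. In the untreated library it was 0 of 364, which allows 0.824% by 3 counts and 1.01% by the Clopper-Pearson interval. The PDOX value lies above both limits, while the intervals overlap. The difference was not tested, since each group is 1 library. The 20 cells of all libraries had a median of 2877.5 UMIs, 1.79 Ctla4 UMIs per 10000 (0.977 to 3.0) and 2.55 of Izumo1r, against 0.143 and 0.764 in all cells with Cd8 UMIs.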

How the results depend on the processing

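The 105 genes called between Treg-gated and comparison cells became 56 with DESeq2, 167 without a filter on low counts (36 higher, 131 lower), 53 with no replicate block, 46 after thinning, 193 with mitochondrial, ribosomal and hemoglobin genes kept (65 higher, 128 lower), 69 with Cd3 and Cd4 UMIs asked of both populations and 45 with at least 2 Foxp3 UMIs. Leaving out 1 library gave 22 to 91 calls, the lowest without anti-OX40/CpG. Without Lyz2-rich cells it was 116. The labels carry no replicate numbers; the library was the block. Of 517 named-gene results under these alternatives 415 kept direction and call, 102 kept direction only and 0 turned. Treg shares in the 4 libraries fell to 0.576%, 0.335%, 0.671% and 1.11% with at least 2 Foxp3 UMIs, and thinning gave 1.40% in anti-OX40/CpG and 2.71% in PDOX. Genes past 2-fold between PDOX and untreated members numbered 180, and 56 after thinning (48 higher, 8 lower) and 54 at 60 UMIs or more (43 higher, 11 lower), where fewer genes were left. All of these counts rest on a filter that lets in genes high in PDOX more easily. The tests of Id2-positive against Id2-negative members, of that difference against comparison cells, and of the Foxp3 against the Ikzf2 and Il2ra arm, with all their alternatives, were not run, because fewer than 2 libraries held 10 cells in each class. Depth limits most the untreated and anti-PD-L1 members, with 18998 and 17580 UMIs.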

Other observations

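Genes outside the lists also separated the populations. Ifngr1, the interferon-gamma receptor chain, and Samhd1, a nucleotide hydrolase that restricts viruses, rose in Treg-gated cells, with edgeR log2 fold changes of 1.41 (SE 0.21, adjusted p = 2.79e-05) and 1.17 (SE 0.20, adjusted p = 0.000119). Pim1, a kinase induced by cytokines, rose as well (1.34, SE 0.21, adjusted p = 3.78e-05). These 3 genes were chosen after their values were seen and were higher in 4 of 4 libraries.

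Il1rl1, the receptor for interleukin-33, and Itgae, an integrin of tissue-resident cells, were too low for the test. Il1rl1 had 9 UMIs in 6 members (0.579 per 10000, 0.265 to 1.10) and 3 UMIs in comparison cells (0.0227). Itgae had 12 UMIs in 10 members (0.772, 0.399 to 1.35) and 5 UMIs in comparison cells (0.0378).

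Summed cell cycle genes stood at 68.8 UMIs per 10000 in anti-PD-L1 members and at 20.5, 24.9 and 18.04 in the other libraries. Of the 67 Hmgb2 UMIs of the anti-PD-L1 members, 42 were in 1 cell.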
